A study of Homo sapiens with 6 samples.

Results

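The Wnt genes described here are the ligands, frizzled receptors, co-receptors, secreted antagonists and intracellular effectors of Wnt signalling in LX-2, a human hepatic stellate cell line grown in culture. In the liver such cells store vitamin A and, after injury, deposit scar matrix. They were chosen by gene symbol alone, which gave 50 genes of the 24789 genes and assembled loci with values. The 50 are 19 WNT ligands, 10 FZD receptors, 5 co-receptors, 8 antagonists, 4 genes of β-catenin and its scaffold, and 4 TCF/LEF transcription factors. RNA was sequenced from cells given an AEBP1 siRNA (3 libraries) or a scrambled siRNA (3 libraries), both at 50 nM and for 48 hours. All 6 libraries came from the same line with no other agent or allele named, and whether they came from separate transfections is not given, so p-values measure a spread that may be technical. The comparison asks what an AEBP1 siRNA does to gene expression in these cells.

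Wnt ligands are secreted lipid-modified glycoproteins that bind a frizzled receptor together with a co-receptor. With LRP5 or LRP6 this stops a scaffold of APC and axin from marking β-catenin for destruction, and β-catenin then joins TCF/LEF factors at target genes. With ROR or RYK receptors, ligands such as WNT5A act largely without β-catenin, on cell polarity and calcium. DKK and SFRP proteins are secreted inhibitors, and Wnt signalling has been linked to stellate cell activation in liver fibrosis.

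Total counts per library were between 34433510 and 49432960. The targeted gene did not follow the labels. AEBP1, a collagen-binding matrix protein, was at 29.7, 27.7 and 48.3 CPM (counts per 1000000, scaled to library size) in libraries labelled AEBP1 siRNA 1, 2 and 3, and at 53.6, 48.7 and 25.1 CPM in those labelled scrambled 1, 2 and 3. The groups overlapped, with an exact two-sided permutation p of 0.6, where 3 against 3 libraries cannot go below 0.1. In both libraries numbered 3, AEBP1 lay nearer to libraries 1 and 2 of the other group, and the cause was not tested. Libraries are named by their labels below, and each direction rests on these labels. The library labelled AEBP1 siRNA 1 stood apart on the first principal component over all genes, at -65.9, where the other 5 lay between 5.74 and 17.3. The cell type label was checked against markers: VIM, COL1A1 and TAGLN were abundant, 9 of 15 stellate or mesenchymal markers passed the filter on low counts, LRAT was at 0 counts in all libraries, and DES and GFAP were at 0.388 CPM or less. Of 25 markers of hepatocytes, epithelium, endothelium and leukocytes, 4 passed the filter, among which KRT7 and SERPINA1 had the highest levels.

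Promoter sequence is shown for 4 members. LEF1 was the one member past the filter whose labelled groups did not overlap in CPM. For CTNNB1, TCF7L1 and DKK1, library 3 of each labelled group lay nearer to libraries 1 and 2 of the other group, with values given further on. The sequences are the 250 bases before a start listed in RefSeq (GRCh38.p14), 5′ to 3′ on the gene's strand. For LEF1 and CTNNB1 that start is an internal one, and the stretch lies inside the gene as placed by GENCODE. There LEF1 begins at 108168956 (minus strand) and CTNNB1 at 41194741 (plus strand). Bases before these outer starts are not shown, so a lack of matches in LEF1 and CTNNB1 covers the internal stretch only. Capitals mark matches to the letters CTTTGA, a form of the core of the site bound by TCF/LEF factors, on either strand. Other forms of the site, such as CTTTGT, were not searched.
LEF1 (chr4:108166302-108166551, minus strand): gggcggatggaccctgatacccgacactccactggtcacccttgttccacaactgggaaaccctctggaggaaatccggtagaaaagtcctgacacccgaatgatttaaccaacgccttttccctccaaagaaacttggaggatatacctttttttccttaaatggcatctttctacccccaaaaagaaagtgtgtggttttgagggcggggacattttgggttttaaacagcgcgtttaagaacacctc
CTNNB1 (chr3:41199255-41199504, plus strand): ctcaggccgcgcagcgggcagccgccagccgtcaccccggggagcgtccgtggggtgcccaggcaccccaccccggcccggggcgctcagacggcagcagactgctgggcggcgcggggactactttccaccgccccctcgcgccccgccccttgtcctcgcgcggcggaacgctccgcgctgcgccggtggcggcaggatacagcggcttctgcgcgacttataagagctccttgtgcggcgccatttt
TCF7L1 (chr2:85133142-85133391, plus strand): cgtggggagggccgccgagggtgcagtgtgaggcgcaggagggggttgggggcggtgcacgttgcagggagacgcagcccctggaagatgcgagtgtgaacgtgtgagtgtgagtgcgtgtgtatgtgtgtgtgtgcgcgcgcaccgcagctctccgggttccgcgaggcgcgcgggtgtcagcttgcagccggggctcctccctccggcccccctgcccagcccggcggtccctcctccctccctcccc
DKK1 (chr10:52314031-52314280, plus strand): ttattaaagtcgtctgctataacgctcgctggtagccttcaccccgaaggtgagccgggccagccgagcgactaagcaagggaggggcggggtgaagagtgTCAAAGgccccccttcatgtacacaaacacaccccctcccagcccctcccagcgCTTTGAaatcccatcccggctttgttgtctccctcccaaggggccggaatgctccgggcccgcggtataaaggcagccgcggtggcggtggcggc
Of the 50 members, 36 had at least 1 such stretch in the table, 43 stretches in all. The letters CTTTGA were found in 1 of the 43 (2.33%), that of DKK1, against 11.2% of 35116 stretches of the same length over all genes. DKK1 held them at 2 places, which begin at -149 and -95 relative to the start, on opposite strands. The TATA box letters TATAAA, searched on both strands, were in 4 of the 43 (9.30%) against 10.7% of all. The member stretches were rich in G and C, with a median of 70.0% against 58.0% over all genes. A match describes letters in this window and is not shown to be a bound site.

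Levels of different genes are compared below in the deposited FPKM (fragments per kilobase of transcript and per unit of sequencing depth), which are scaled to length. Of the 50 members, 35 passed the filter on low counts and 15 did not. No member passed the test between the labelled groups (1 had an unadjusted p under 0.05, and DESeq2 and limma-voom also called 0), where 0.00615% of the 16250 genes tested were called by edgeR at an adjusted p under 0.05.

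**Figure D1:**
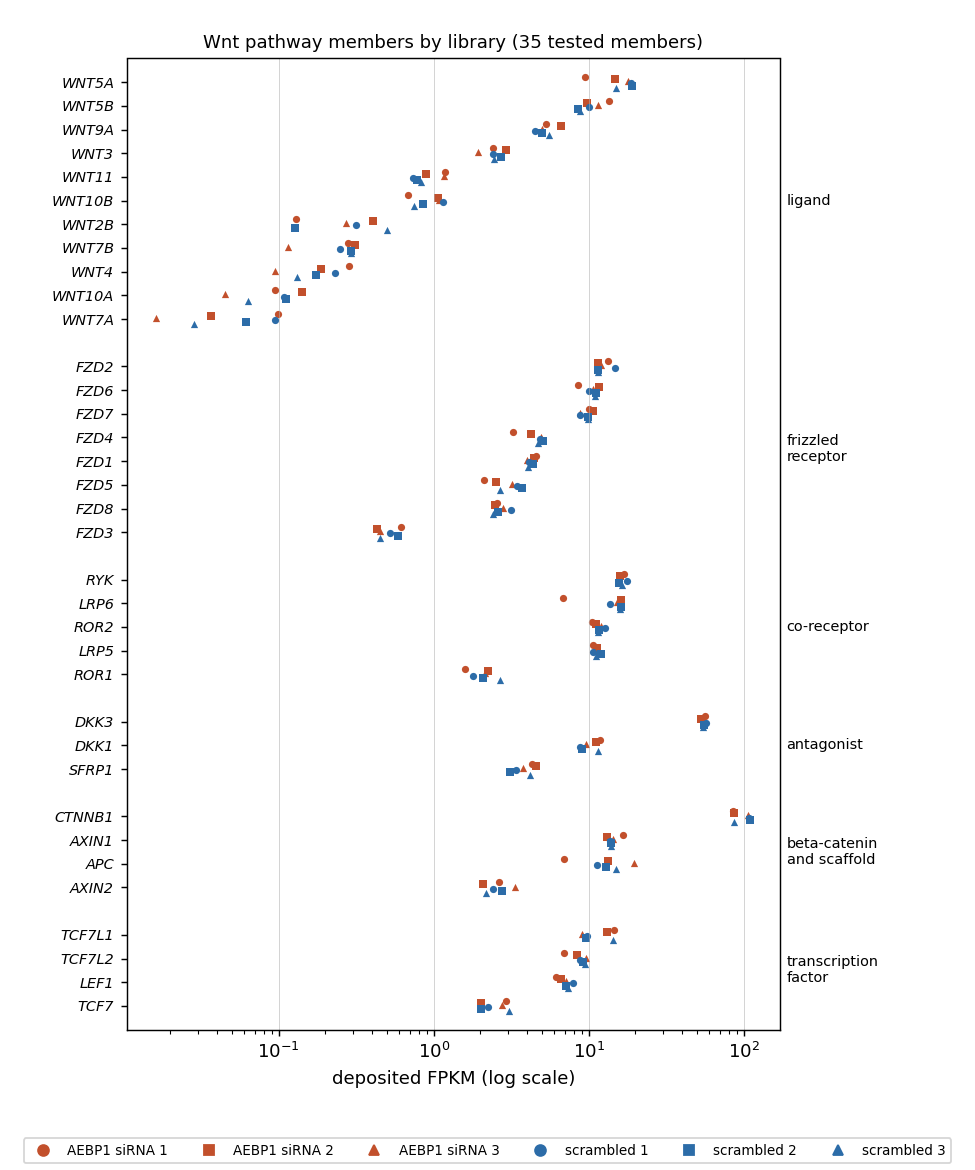
Deposited FPKM on a log scale for the 35 members that passed the filter on low counts, grouped by role, with 1 point per library (orange, labelled AEBP1 siRNA; blue, labelled scrambled). CTNNB1 and DKK3 lie above all other members, and ligands span the widest range, down to WNT7A at 0.0163 to 0.0992 FPKM.

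The ligand made at the highest level was in most libraries WNT5A, the best known ligand of the branches without β-catenin. It was at 9.43, 14.7 and 18.0 FPKM in libraries labelled AEBP1 siRNA 1, 2 and 3, and at 18.9, 19.0 and 15.0 FPKM in those labelled scrambled 1, 2 and 3. The library labelled AEBP1 siRNA 1 was the lowest, and the groups overlapped. WNT5B, its close paralog, was at 13.5, 9.74 and 11.5 FPKM (AEBP1 siRNA) against 10.0, 8.54 and 8.78 FPKM (scrambled). In AEBP1 siRNA 1 WNT5B was thus above WNT5A, and over the 6 libraries the ranges of the 2 genes overlapped. WNT9A, a ligand studied mainly in joint and skeletal development, followed at 5.26, 6.59 and 4.98 FPKM (AEBP1 siRNA) against 4.48, 5.00 and 5.55 FPKM (scrambled). Its range lay below that of WNT5B and above that of WNT3.

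Together these 3 ligands took 83.0% to 87.8% of the summed FPKM of all 19 ligands in each library. That sum averaged 36.8 FPKM ± 2.90 (AEBP1 siRNA) against 37.0 ± 2.24 (scrambled; SD, n = 3 each). WNT3, a ligand that acts through β-catenin, averaged 2.43 FPKM ± 0.502 in libraries labelled AEBP1 siRNA and 2.52 ± 0.160 in those labelled scrambled (SD, n = 3 each). WNT11 averaged 1.08 ± 0.159 (AEBP1 siRNA) against 0.784 ± 0.0478 FPKM (scrambled), and its deposited FPKM did not overlap between the groups. The share of all genes whose FPKM did not overlap was not taken. For WNT11 the transcript length implied by counts and FPKM, described further on, varied 1.42-fold among libraries. In CPM the groups did overlap, at 2.27, 1.70 and 1.99 (AEBP1 siRNA) against 1.31, 1.22 and 1.83 (scrambled), with a log2 fold change of 0.45 (SE 0.272, edgeR adjusted p = 0.991). WNT10B, WNT2B, WNT7B, WNT4, WNT10A and WNT7A also passed the filter, each with a mean of at most 0.929 FPKM.

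The other 8 ligands did not pass. WNT8A had 0 counts in all libraries, where 3 counts correspond to 0.0607 to 0.0871 CPM depending on the library. WNT1, WNT6, WNT8B and WNT16 had at most 10 counts in any library. WNT3A, the ligand used most often to switch on β-catenin in culture, had 9 counts in AEBP1 siRNA 2 and 0 in the other 5. WNT2 had 14 counts in AEBP1 siRNA 1 and 0 in the other 5, and WNT9B had 2 counts in scrambled 1 alone. In a bulk sample, fewer cells with a transcript and less of it per cell cannot be told apart.

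Log2 fold changes of the main ligands (AEBP1 siRNA over scrambled) had 95% intervals that included 0. They were -0.20 for WNT5A (SE 0.192, 95% interval -0.64 to 0.24), 0.24 for WNT5B (SE 0.164, -0.14 to 0.62) and 0.15 for WNT9A (SE 0.141, -0.18 to 0.47), with edgeR adjusted p of 0.991 for each. With replicate 3 of both groups left out, the libraries whose AEBP1 level does not follow their labels, that of WNT5A was -0.48 (edgeR adjusted p = 0.967). Without AEBP1 siRNA 1, the estimates were -0.0069 for WNT5A, 0.082 for WNT5B and 0.20 for WNT9A.

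WNT2B had the widest range of CPM among libraries of all tested members. It was at 1.58, 4.44 and 0.993 CPM in libraries labelled AEBP1 siRNA 1, 2 and 3, and at 1.27, 0.406 and 5.73 CPM in those labelled scrambled 1, 2 and 3, a 14.1-fold range. High and low libraries stood in both groups, and the log2 fold change of -0.08 had a 95% interval of -2.09 to 1.94 (edgeR adjusted p = 0.996). With replicate 3 of both groups left out it was 1.86 (edgeR adjusted p = 0.967). The deposited FPKM had a narrower range, from 0.127 to 0.496 or 3.91-fold, and on that scale WNT7A had a wider one, 6.10-fold. Another annotated gene overlaps 26 of the 50 members, on the opposite strand for 23 of them. WNT2B overlaps ST7L on the opposite strand, which had 974 to 1415 counts beside 20 to 251 for WNT2B. No source used here gives the strand setting of the counts. FBXL14, opposite WNT5B, had 740 to 1276 counts beside 712 to 967 for WNT5B. PRSS23, opposite FZD4, had 6715 to 9389 beside 930 to 2075 for FZD4. SKP1, opposite TCF7, had 8633 to 12226, and BCL2L14, opposite LRP6, had at most 10. How many reads of these members fall in shared stretches was not tested.

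Frizzled receptors, which bind the ligands at the cell surface, were led by FZD2, FZD6 and FZD7. The range of FZD6 overlapped those of FZD2 and FZD7, while FZD2 lay above FZD7 in range. FZD2 was at 13.3, 11.4 and 12.1 FPKM in libraries labelled AEBP1 siRNA 1, 2 and 3, and at 14.8, 11.4 and 11.5 FPKM in those labelled scrambled. FZD6, often described as a brake on the β-catenin branch, was at 8.52, 11.7 and 10.7 FPKM (AEBP1 siRNA) against 10.1, 11.2 and 11.0 FPKM (scrambled). FZD7 was at 10.0, 10.7 and 8.75 FPKM (AEBP1 siRNA) against 8.85, 9.94 and 9.89 FPKM (scrambled). These 3 took 66.6% to 70.9% of the summed FPKM of the 10 receptors, a sum that averaged 46.6 FPKM ± 1.56 (AEBP1 siRNA) against 48.4 ± 1.59 (scrambled; SD, n = 3 each). Their log2 fold changes were -0.05, -0.04 and 0.03, each smaller than its SE of 0.136, 0.130 and 0.105.

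FZD4 and FZD1 formed the next tier, with means over the 6 libraries of 4.51 and 4.25 FPKM, and FZD5 and FZD8 a lower one, at 2.94 and 2.67 FPKM. FZD3 averaged 0.509 FPKM, FZD9 had counts in 2 libraries only, and FZD10 had 0 in all. FZD5 had the smallest p among the receptors. It was at 15.7, 18.8 and 24.6 CPM in libraries labelled AEBP1 siRNA 1, 2 and 3, and at 26.3, 27.9 and 20.2 CPM in those labelled scrambled 1, 2 and 3. The groups overlapped, with AEBP1 siRNA 3 above scrambled 3. Its log2 fold change came to -0.33 (SE 0.193, 95% interval -0.78 to 0.11, edgeR adjusted p = 0.991). With replicate 3 of both groups left out it was -0.65 (edgeR adjusted p = 0.787).

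All 5 co-receptors were expressed, and 4 of them at similar levels. RYK, a receptor with an inactive kinase domain, was at 16.8, 15.9 and 15.7 FPKM in libraries labelled AEBP1 siRNA and 17.6, 15.7 and 16.5 FPKM in those labelled scrambled. ROR2, a receptor for WNT5A, was at 10.4, 11.2 and 12.05 FPKM (AEBP1 siRNA) against 12.8, 11.6 and 11.4 FPKM (scrambled). LRP5 averaged 11.1 FPKM ± 0.308 (AEBP1 siRNA) against 11.2 ± 0.655 (scrambled; SD, n = 3 each). ROR1 was the least abundant, with a mean over all libraries of 2.09 FPKM.

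LRP6, the partner of frizzled in the β-catenin branch, was at 6.81, 16.1 and 15.2 FPKM in libraries labelled AEBP1 siRNA 1, 2 and 3, and at 13.8, 16.1 and 15.8 FPKM in those labelled scrambled. A single library, AEBP1 siRNA 1, was low. The log2 fold change of -0.18 (SE 0.237, edgeR adjusted p = 0.991) was 0.07 without that library. The log2 fold changes of RYK, ROR2, LRP5 and ROR1 were -0.05, -0.10, -0.03 and -0.03.

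The antagonists came down to 3 genes. DKK3, a member of the DKK family whose effect on Wnt signalling is disputed, was at 56.4, 53.4 and 55.8 FPKM in libraries labelled AEBP1 siRNA and 57.1, 55.4 and 54.7 FPKM in those labelled scrambled. It took 77.2% to 82.3% of the summed FPKM of the class and varied 1.097-fold at most in CPM. DKK1, which blocks LRP5 and LRP6, was at 11.9, 11.2 and 9.53 FPKM (AEBP1 siRNA) against 8.81, 9.01 and 11.5 FPKM (scrambled). SFRP1, which binds Wnt ligands, was at 4.33, 4.60 and 3.79 FPKM (AEBP1 siRNA) against 3.38, 3.12 and 4.21 FPKM (scrambled). DKK4, SFRP4 and SFRP5 had 0 counts in all libraries, and SFRP2 had 3 counts in AEBP1 siRNA 3 alone. DKK2, which also binds LRP5 and LRP6, had 0, 0 and 2 counts in libraries labelled AEBP1 siRNA 1, 2 and 3, and 10, 10 and 3 counts in those labelled scrambled 1, 2 and 3. These groups did not overlap, but AEBP1 siRNA 3 and scrambled 3 differed only as 2 against 3 counts. DKK2 did not pass the filter, so the main fit has no test of it. With no filter, no member was called. The share of genes with groups that did not overlap was taken over tested genes only, so DKK2 has no such share beside it.

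The labelled groups overlapped for DKK1 and for SFRP1, with scrambled 3 above AEBP1 siRNA 3 for both. Their log2 fold changes were 0.14 (SE 0.146) and 0.24 (SE 0.147), with edgeR adjusted p of 0.991. With replicate 3 of both groups left out they were 0.35 and 0.43, with adjusted p of 0.967 for both. Not every member moved far from 0 under this choice. LRP6 was at -0.21 against -0.18 with all libraries and AXIN1 at 0.08 against 0.07, both little changed. APC moved towards 0, at -0.26 against -0.36. Replicate 3 was left out because of its AEBP1 level, so such estimates are no test of AEBP1.

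**Figure D2:**
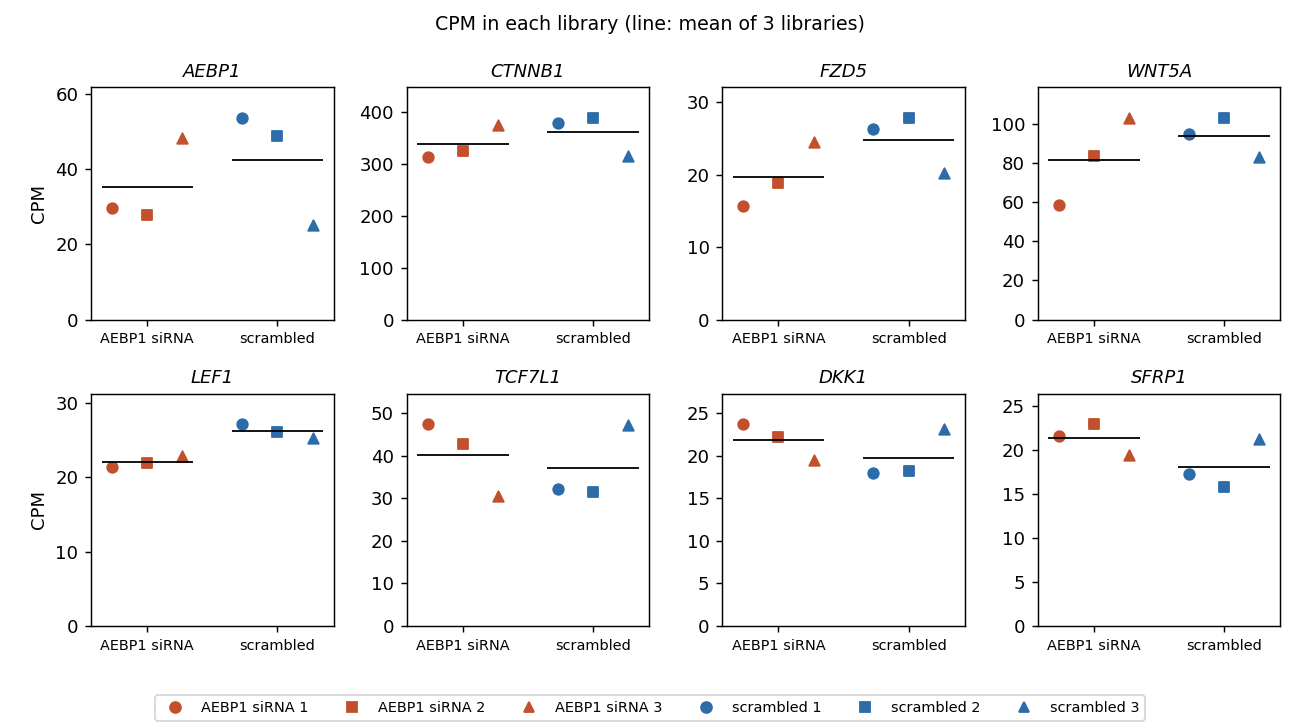
CPM of AEBP1 and 7 Wnt members in each library, with labelled AEBP1 siRNA left of labelled scrambled and a line at the mean of each group of 3. LEF1 is lower in every library labelled AEBP1 siRNA (21.4 to 22.8 CPM) than in any labelled scrambled (25.3 to 27.1 CPM), and in the other 7 panels the groups overlap.

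CTNNB1, which encodes β-catenin, was the most abundant of the 50 members. It was at 85.7, 87.1 and 106 FPKM in libraries labelled AEBP1 siRNA 1, 2 and 3, and at 109, 110.2 and 86.0 FPKM in those labelled scrambled 1, 2 and 3. The groups overlapped, with AEBP1 siRNA 3 above scrambled 3. The log2 fold change came to -0.10 (SE 0.121, 95% interval -0.37 to 0.18, edgeR adjusted p = 0.991). With replicate 3 of both groups left out it was -0.27 (edgeR adjusted p = 0.967). In CPM its highest library was 1.24 times its lowest. CTNNB1 overlaps ULK4 on the opposite strand, which had between 111 and 204 counts against at least 10927 for CTNNB1.

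AXIN1, the scaffold on which β-catenin is marked for destruction, was steady in the libraries labelled scrambled and more variable in those labelled AEBP1 siRNA. It was at 16.7, 13.2 and 14.4 FPKM (AEBP1 siRNA) against 13.8, 14.02 and 13.98 FPKM (scrambled), with a log2 fold change of 0.07 (SE 0.110). AXIN2, a feedback gene that β-catenin switches on, was much lower, averaging 2.69 FPKM ± 0.640 (AEBP1 siRNA) against 2.44 ± 0.281 (scrambled; SD, n = 3 each). Its log2 fold change came to 0.03 (SE 0.153, 95% interval -0.32 to 0.38).

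APC, the large scaffold of the destruction complex, differed between counts and FPKM. It was at 70.4, 133 and 100.4 CPM in libraries labelled AEBP1 siRNA 1, 2 and 3, and at 116, 127 and 146 CPM in those labelled scrambled. Its log2 fold change came to -0.36 (SE 0.212, 95% interval -0.84 to 0.13, edgeR adjusted p = 0.991), and -0.15 without AEBP1 siRNA 1. In FPKM it was at 6.94, 13.3 and 19.7 (AEBP1 siRNA) against 11.3, 12.8 and 15.0 (scrambled), so AEBP1 siRNA 3 was the highest library on that scale and, in CPM, above AEBP1 siRNA 1 alone.

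The 2 units can be set against each other as the transcript length they imply, raw counts per 1000000 divided by FPKM. For APC this was 10.2, 9.99 and 5.06 kb in libraries labelled AEBP1 siRNA 1, 2 and 3, and 10.2, 9.84 and 9.81 kb in those labelled scrambled. For WNT2B it was 12.4, 11.0 and 3.65 kb (AEBP1 siRNA) against 3.98, 3.19 and 11.6 kb (scrambled), and for LRP6 9.19, 7.45 and 7.65 kb (AEBP1 siRNA) against 7.05, 6.97 and 8.17 kb (scrambled). Of the 35 tested members, 20 had an implied length within 1.1-fold over the 6 libraries, and 3 varied over 1.5-fold, namely WNT2B, APC and WNT4. How the authors set the length of a gene with several transcripts is not given in sources used here.

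**Figure D3:**
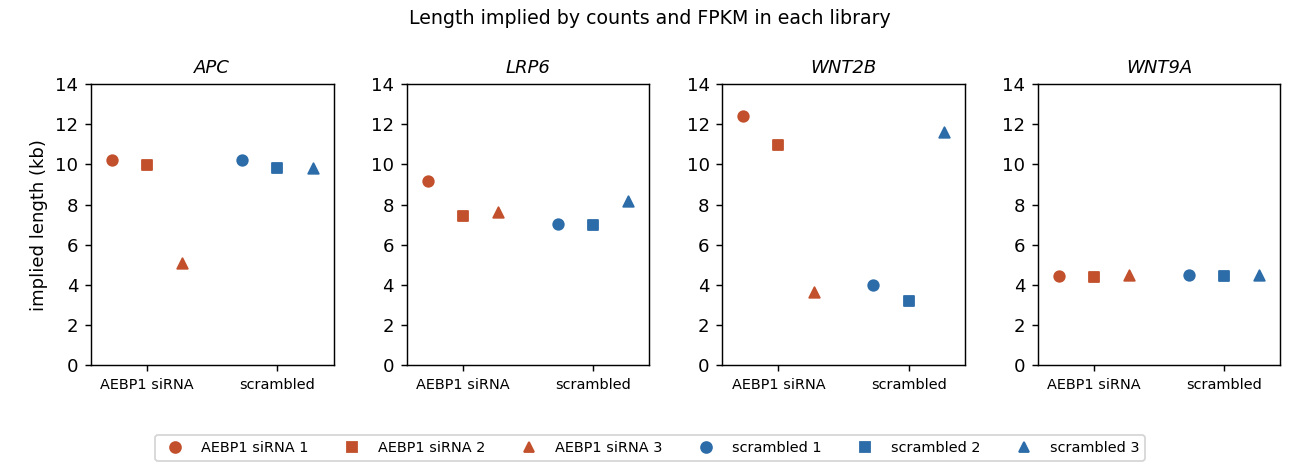
Transcript length in kb implied by counts and FPKM in each library, for APC, LRP6, WNT2B and, as a steady gene, WNT9A. APC drops to 5.06 kb in AEBP1 siRNA 3, and WNT2B lies above 10 kb in AEBP1 siRNA 1 and 2 and scrambled 3 and below 4 kb in the others.

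LEF1, the TCF/LEF factor that β-catenin both works with and induces, was the only tested member whose labelled groups did not overlap in CPM. It was at 21.4, 21.9 and 22.8 CPM in libraries labelled AEBP1 siRNA 1, 2 and 3, and at 27.1, 26.1 and 25.3 CPM in those labelled scrambled. The log2 fold change came to -0.25 (SE 0.102, 95% interval -0.48 to -0.01), with an unadjusted p of 0.0408 and an edgeR adjusted p of 0.991, which does not pass. Leaving out single libraries gave -0.28 to -0.22. In FPKM the groups overlapped, at 6.16, 6.61 and 7.15 (AEBP1 siRNA) against 7.95, 7.10 and 7.30 (scrambled). LEF1 is 1 of 35 members, or 2.86%. Over all genes tested, 5.93% had groups that did not overlap in CPM, 3.03% higher and 2.9% lower, and 1.33% had an unadjusted p under 0.05, 0.732% higher and 0.597% lower. LEF1-AS1 overlaps 1432 bases of LEF1 on the opposite strand, and reads within that stretch cannot be told apart without strand.

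TCF7L1, mostly a repressor of Wnt targets, was the most abundant of the 4 factors by mean. It was at 14.6, 13.05 and 9.08 FPKM in libraries labelled AEBP1 siRNA 1, 2 and 3, and at 9.74, 9.55 and 14.2 FPKM in those labelled scrambled 1, 2 and 3. The groups overlapped, with scrambled 3 among the higher libraries and AEBP1 siRNA 3 the lowest. Its log2 fold change came to 0.12 (SE 0.207, edgeR adjusted p = 0.991), and 0.50 (adjusted p = 0.828) with replicate 3 of both groups left out. TCF7L2 was at 6.92, 8.40 and 9.57 FPKM (AEBP1 siRNA) against 8.84, 9.25 and 9.46 FPKM (scrambled), and TCF7 averaged 2.56 ± 0.482 (AEBP1 siRNA) against 2.44 ± 0.556 FPKM (scrambled; SD, n = 3 each). The ranges of TCF7L1 and TCF7L2 overlapped, as did those of TCF7L2 and LEF1, and TCF7 lay below all 3.

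Over the 35 tested members, 14 log2 fold changes were above 0 and 21 below, with a median of -0.04, beside 8031 above and 8219 below and a median of -0.0023 over all 16250 genes. Sizes were similar to those of all genes, with a median absolute log2 fold change of 0.10 against 0.11. Where the mean reached 5 CPM or more, the highest library exceeded the lowest by over 1.5-fold for 8 of 28 members (28.6%) and 27.4% of 11594 genes. AEBP1 siRNA 1, 2 and 3 were the lowest of the 6 libraries for 12, 5 and 8 members, and scrambled 1, 2 and 3 for 3, 6 and 1. Over all genes tested the shares were 32.7%, 14.9% and 12.4%, and 10.8%, 12.2% and 16.9%. With AEBP1 siRNA 1 lowest, 12 of 35 members (34.3%) lies near its share. Other shares differed more, with AEBP1 siRNA 3 lowest for 22.9% of members and scrambled 3 for 2.86%. AEBP1 siRNA 1, 2 and 3 were the highest for 9, 7 and 2 members, and scrambled 1, 2 and 3 for 8, 5 and 4. The shares of all genes were 32.2%, 13.9% and 11.9%, and 12.6%, 12.6% and 16.7%. Among members, scrambled 1 was the highest for 22.9% and AEBP1 siRNA 3 for 5.71%. These departures were not tested.

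**Figure D4:**
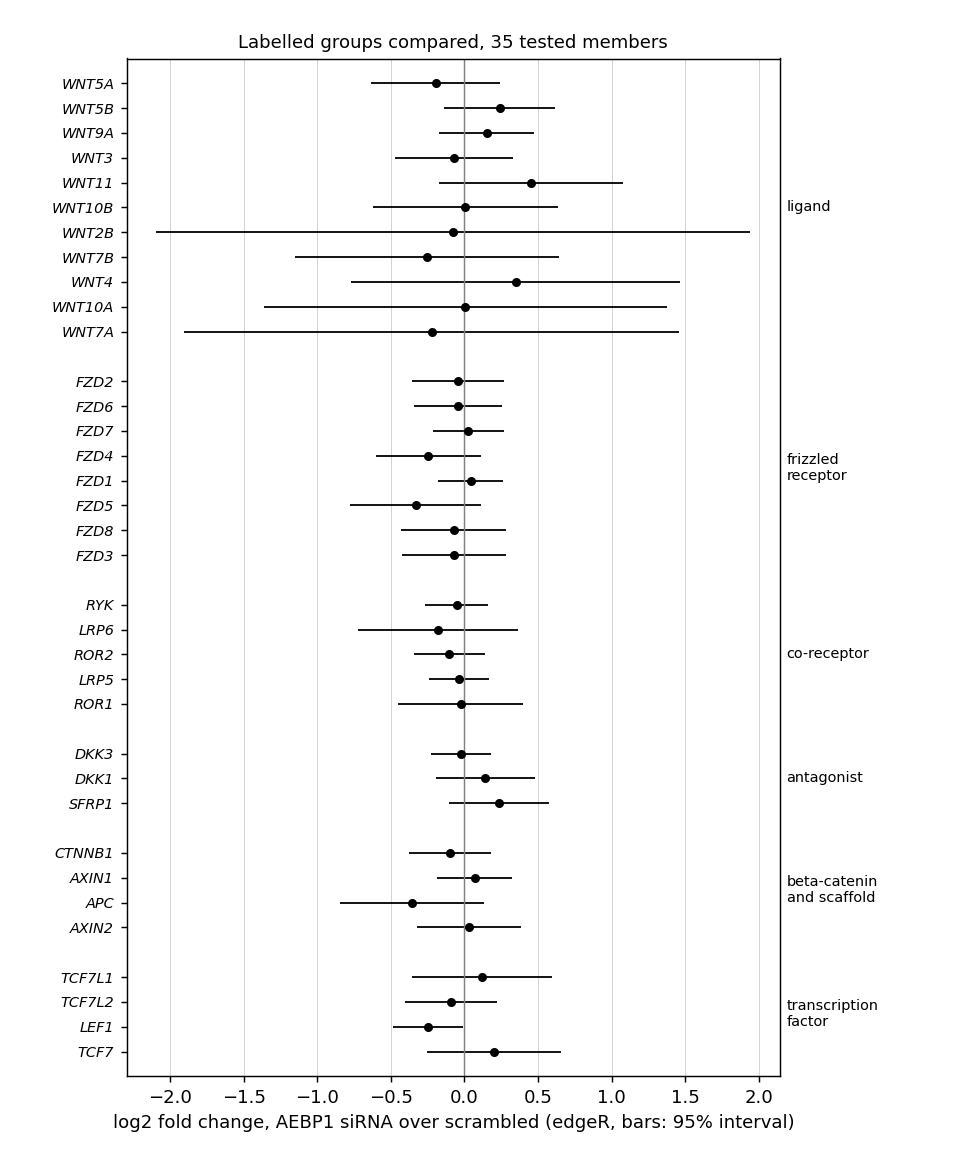
Log2 fold changes of the 35 tested members, AEBP1 siRNA over scrambled as labelled, with 95% intervals from edgeR. All intervals but that of LEF1 include 0, and those of the scarce ligands WNT2B, WNT7A and WNT10A are the widest.

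Of 119 other pathway genes on 4 lists, 101 were tested and none was called, by edgeR at an adjusted p under 0.05, while 2 had an unadjusted p under 0.05. Among secretion and surface modulators, 7 of 16 tested had a log2 fold change above 0 and 9 below, and the median was -0.03. WLS, which carries Wnt ligands to the cell surface, averaged 47.0 FPKM ± 2.07 (AEBP1 siRNA) against 49.6 ± 3.29 (scrambled; SD, n = 3 each). PTK7, a surface protein of the polarity branch, averaged 29.3 ± 0.416 (AEBP1 siRNA) against 29.9 ± 0.869 FPKM (scrambled). The stem cell receptor LGR5 and the antagonists WIF1 and SOST had 0 counts in all libraries.

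Among genes of the β-catenin pathway inside the cell, 15 of 37 had an estimate above 0 and 22 below, with a median of -0.04. CSNK1A1, the kinase that first marks β-catenin, averaged 57.1 FPKM ± 6.36 (AEBP1 siRNA) against 62.6 ± 3.79 (scrambled), and its relative CSNK1D 51.0 ± 1.51 (AEBP1 siRNA) against 48.5 ± 2.45 (scrambled). Among genes of the polarity and calcium branches, 8 of 28 were above 0 and 20 below, with a median of -0.08. RHOA, a small GTPase, averaged 301 FPKM ± 33.0 (AEBP1 siRNA) against 285 ± 11.8 (scrambled), and RAC1, another, 82.5 ± 15.7 (AEBP1 siRNA) against 73.4 ± 6.46 (scrambled). Among β-catenin target genes, 13 of 20 were above 0 and 7 below, with a median of 0.03. The AP-1 factor FOSL1 averaged 198 FPKM ± 16.1 (AEBP1 siRNA) against 174 ± 17.9 (scrambled), and cyclin D1 (CCND1) 138 ± 9.49 (AEBP1 siRNA) against 135 ± 13.9 (scrambled).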

How the data were processed

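RNA from LX-2 cells was sequenced in 6 libraries, 3 labelled AEBP1 siRNA and 3 labelled scrambled, and groups were taken from the labels. The authors deposited a table of raw counts and FPKM per gene, per the file headers. Reads were placed on hg19, per the submitters' processing notes. Aligner, counter, annotation, strandedness and filtering were not given in the sources used here. The table had 17 lines of annotation text without values, which were dropped, and 27 symbols turned into dates were restored by gene ID. All 50 Wnt symbols were in the table under the same gene ID as in the name table.

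After filterByExpr, 16250 genes remained, and TMM factors set their scale. The main test was edgeR's quasi-likelihood test (edgeR 4.0.16, R 4.3.3) on group alone. A gene was called at a Benjamini-Hochberg adjusted p under 0.05, taken over every tested gene. Standard errors were derived from the F statistic and the log2 fold change. CPM are counts per 1000000 of the TMM-scaled library size, and an implied length uses unscaled totals. FPKM were used as deposited. Total counts were 34433510 to 49432960 per library, and floors of 3 counts cover counting error only.

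The members, lists and alternatives were chosen with earlier results of these data known. Values in each library were given for the 3 most abundant members of each role, the member with the smallest p, and members whose groups did not overlap. Group means were given for the 2 most abundant genes of each other list. Log2 fold changes, SE and p were given for only some of these genes. Other members were named after their values were seen. Alternatives were scaling by DESeq2 size factors or the upper quartile, dropping the filter, a 5 CPM mean filter, the DESeq2 1.42.0 Wald test, limma-voom (limma 3.58.1), limma on log2(FPKM + 1), a replicate block, each library left out, and replicate 3 of both groups left out, also with AEBP1 siRNA 1. The edgeR script was tested on simulated counts. Promoter stretches come from RefSeq (GRCh38.p14), and gene overlaps from GENCODE 29 (GRCh38). The deposited table holds no coordinates.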

Additional observations from a re-analysis of the deposited data

How the results depend on the processing

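No Wnt member was called under any alternative run. The lowest adjusted p of a member was 0.0602, for WNT2B with replicate 3 of both groups and AEBP1 siRNA 1 left out. There a lone AEBP1 siRNA library (as labelled) was assumed to vary like the other group, and 249 genes were called, or 1.46% of those fitted. AEBP1 was at -0.88 there on the log2 scale (edgeR adjusted p = 0.00536), but replicate 3 was left out because of its AEBP1 level, so that fall was fixed by the choice and is no test of AEBP1. Against 1 gene called in all, no filter gave 3, DESeq2 6 and limma-voom 2, and leaving out single libraries 0 to 2. The median log2 fold change of the members was -0.04, and it was -0.021 with log2(FPKM + 1), -0.061 with replicate 3 of both groups left out, 0.0091 with AEBP1 siRNA 1 left out as well, and -0.058 to -0.0033 without single libraries. No pairing by replicate number was seen, with correlations of same-numbered deviations of 0.0961, -0.0078 and -0.102, and 2 of 6 libraries correlated best with their own number. The replicate block gave 2 genes.

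Estimates of 10 named members and 5 genes of other lists changed sign, none of them called, and the cause was not tested. With each library left out in turn, estimates spanned -0.029 to 0.15 for AXIN1, -0.045 to 0.0064 for DKK3, -0.11 to 0.091 for FZD2, -0.14 to 0.079 for FZD6, -0.032 to 0.091 for FZD7, -0.34 to 0.068 for LRP6, -0.014 to 0.34 for TCF7L1, -0.20 to 0.018 for TCF7L2, -0.045 to 0.012 for PTK7, -0.0027 to 0.058 for CSNK1D, -0.013 to 0.13 for RHOA and -0.042 to 0.0995 for CCND1. With replicate 3 of both groups and AEBP1 siRNA 1 left out they were 0.13 for APC, -0.12 for AXIN1, 0.13 for FZD6, 0.19 for LRP6, -0.022 for WNT5B, 0.026 for CSNK1A1, -0.012 for CSNK1D and -0.022 for RHOA. The other 10 named members (CTNNB1, DKK1, FZD5, LEF1, ROR2, RYK, SFRP1, WNT11, WNT5A and WNT9A) kept their direction under every alternative that fitted them. WNT11 was not fitted under the 5 CPM mean filter. Some came near 0, at -0.0069 for WNT5A without AEBP1 siRNA 1 and -0.0033 for RYK without scrambled 1. WNT9A was at 0.027 without AEBP1 siRNA 2.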

Other observations

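Of 101 tested genes on the 4 pathway lists, 7 had groups that did not overlap in CPM, beside 5.93% of all genes tested. The 4 given here were chosen after their values were seen, and none was called. FRZB, a secreted antagonist related to the SFRP genes, averaged 0.210 FPKM in libraries labelled AEBP1 siRNA and 0.0975 in those labelled scrambled, with a log2 fold change of 1.07 (SE 0.437, edgeR adjusted p = 0.991). TSPAN12, a partner of FZD4, averaged 0.428 (AEBP1 siRNA) against 0.630 FPKM (scrambled), with a log2 fold change of -0.75 (SE 0.321, edgeR adjusted p = 0.991). NKD1, a feedback inhibitor induced by β-catenin, averaged 0.187 (AEBP1 siRNA) against 0.243 FPKM (scrambled) (log2 fold change -0.39, SE 0.193). BAMBI, a pseudoreceptor and β-catenin target, averaged 4.06 (AEBP1 siRNA) against 3.28 FPKM (scrambled) (log2 fold change 0.30, SE 0.155).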
